A study of Homo sapiens with 33 samples.

Results

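The comparison covers 8 of the 33 libraries of the study: MDA-MD-231 cells, a triple-negative breast cancer line spelled here as in the labels, with CDK1 KO, CDK7 KO, CDK9 KO or CDK7/9 KO, each measured at 96 h and at 72 h. The 4 libraries at 96 h were compared with the 4 at 72 h, paired by genotype, and all 8 were chosen by their labels alone. The empty vector cells of the same line at 72 and 96 h (2 libraries) are shown apart. The rest of the study holds inhibitor treatments of this line and of MDA-MD-468, and parental cells. Each library is a 3' tag library of poly(A) RNA, in which reads come from next to the 3' end of each transcript.

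Each genotype has 1 library at each time. The labels do not say whether these were separate cultures, from what moment the hours were counted, how the knockouts were made, or whether the cells were a pool or a clone, and all values are averages over the cells present. The test therefore looks for a change from 72 to 96 h shared by 4 genotypes. Its p-values and standard errors (SE) rest on the spread between pairs, which may be technical. This spread was estimated partly from the gene and partly from all genes. An SE can therefore be smaller than a gene's own 4 pairs would give. Time and anything else that differed between the harvests cannot be told apart. In whole-culture RNA, fewer cells with a transcript and less of it per cell cannot be told apart either.

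As part of TFIIH, CDK7 phosphorylates RNA polymerase II when transcription starts, and it switches on cell cycle kinases as well. CDK9 acts after it: with a cyclin T partner it forms P-TEFb and frees the paused polymerase to elongate. CDK1, with cyclin B, drives entry into mitosis.

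The 8 libraries held 16985219 to 22417327 counts, and all 16 marker genes of the line were detected in each, with a median of 414 to 507 CPM. CPM is a gene's count relative to the library size after trimmed mean (TMM) scaling. The 19 markers of the other line had a median of 0.346 to 1.37 CPM but 299.5 to 665.6 CPM over all 19, and 12 of them had enough counts to be tested. Of the 10 markers of immune cells 3 to 6 were at 0, with 6.29 to 13.6 CPM over all 10. CDK1 mRNA was at 82.1 CPM at 72 h and 85.2 CPM at 96 h in CDK1 KO, against 141 to 183 CPM in the other knockouts. CDK7 mRNA was at 13.8 to 17.2 CPM in the 4 libraries with CDK7 targeted and at 45.4 to 49.2 CPM in the other 4. CDK9 mRNA was at 33.4 to 36.7 CPM in the 4 libraries with CDK9 targeted and at 67.0 to 74.1 CPM in the other 4. A 3' tag can lie outside the part of a gene that was altered, so these levels give only a partial check of the labels. None of the 3 mRNAs passed the test between the times: the log2 change was -0.07 ± 0.043 for CDK1, 0.01 ± 0.063 for CDK7 and 0.06 ± 0.050 for CDK9 (± SE), with edgeR BH-adjusted p of 0.475, 0.98 and 0.688.

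From 72 to 96 h the knockout cells changed little. Of 16658 genes tested, 301 (1.81%) passed the threshold of BH-adjusted p under 0.05 in edgeR's quasi-likelihood test, 89 higher at 96 h (0.534%) and 212 lower (1.27%). The changes were small, with a median absolute log2 change of 0.25 among the called genes, and 27 exceeded 1.5-fold. Genes called higher at 96 h included a pair of arrestin-like regulators of glucose uptake and 2 cytochrome P450 targets of the aryl hydrocarbon receptor. They also included 7 of 19 tested histone genes and 7 of 22 tested genes of TGF-beta signalling. The TGF-beta group was assembled after the values were seen, and 1 of its genes was called lower. The other lists were chosen with earlier results of these data known, so their counts are descriptive too. Among all genes called lower were 8 of 25 genes of cholesterol synthesis and uptake and 6 of 15 of fatty acid synthesis. Also lower were 9 of 37 of collagens, laminins, integrins and matrix, and the cytokine IL11. The count rested on some pairs more than on others: it was 37 without the CDK7/9 KO pair, 112 without the CDK1 KO pair, 318 without the CDK7 KO pair and 430 without the CDK9 KO pair, and 36, 105, 211 and 253 of these genes were among the 301. With genotype left out of the model, 0 genes passed (323 at an unadjusted p under 0.05), and with the empty vector pair added as the fifth genotype 9 did. Of the 30 genes with the largest changes, described next, TXNIP, KLF11, ZNF789, CEMIP, H2BC4, ATF3, MIR23AHG, ITGA10, TMEM135 and ABCA1 lost their call without the CDK7/9 KO pair, ZNF789, CEMIP, ATF3 and ITGA10 without the CDK1 KO pair, CEMIP and ITGA10 without the CDK7 KO pair, and ZNF789 without the CDK9 KO pair.

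**Figure D1:**
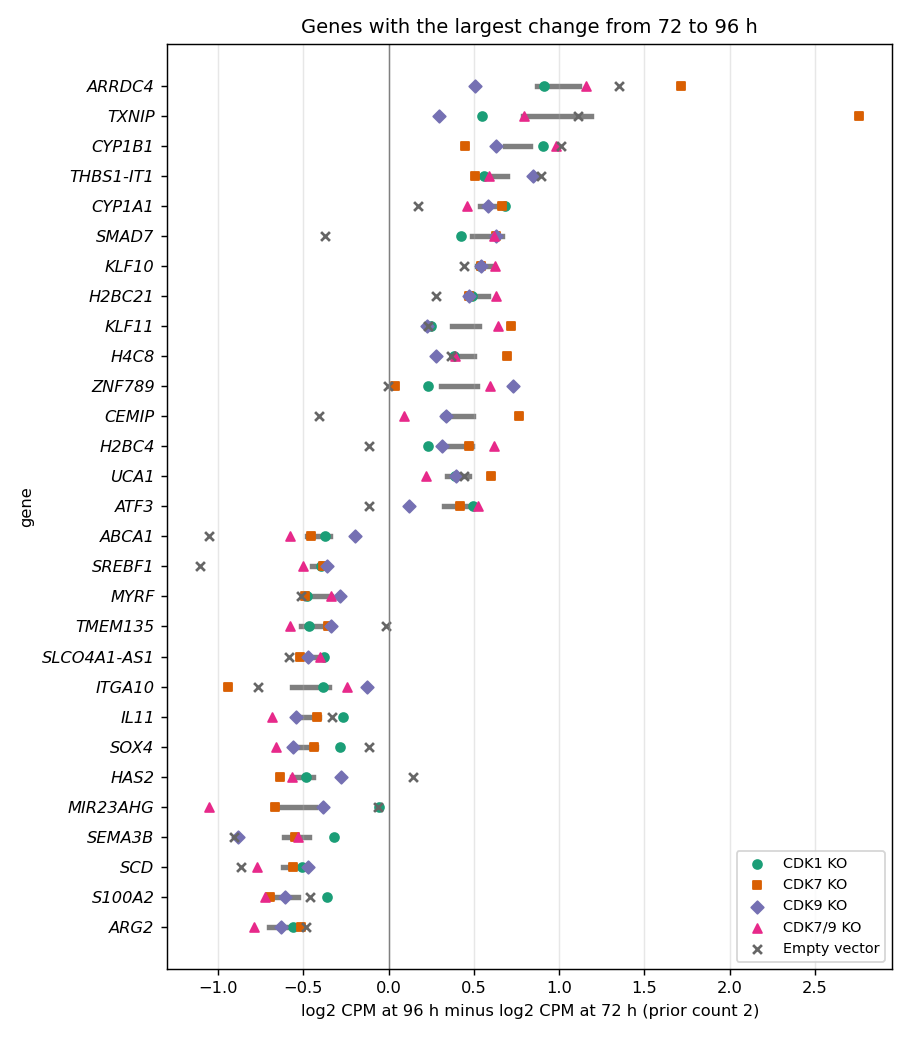
Log2 CPM at 96 h minus log2 CPM at 72 h (horizontal axis) for the 15 largest rises and 14 of the 15 largest falls among called genes (vertical axis), with 1 point for each genotype. The dark bar spans the fitted change of the 4 knockout genotypes ± 1 SE, and crosses mark the empty vector pair, which was not in that fit. The coloured points of a gene lie on 1 side of 0 in all 29 genes because the choice of genes required it. The cross lies on the other side for SMAD7, CEMIP, H2BC4, ATF3, HAS2 and, by 0.01 or less, ZNF789.

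Values by library are given for CDK1 KO first, then for CDK7 KO, CDK9 KO and lastly CDK7/9 KO. Among genes averaging 10 CPM or more, the largest rises belonged to TXNIP (chr1:145992435-145996600 on GRCh38) and ARRDC4 (chr15:97960698-97973838). Both encode alpha-arrestins that restrain glucose uptake, and both are known targets of the glucose-sensing factor pair MondoA and MLX. TXNIP was at 299, 34.8, 270 and 199 CPM at 72 h and 436, 236, 331 and 345 CPM at 96 h. Every pair was higher at 96 h, and the CDK7 KO pair, far below the others at 72 h, had the largest difference. The fitted log2 change was 0.99 ± 0.20, or 1.98-fold (edgeR BH-adjusted p = 0.00949), with 0.55, 2.76, 0.29 and 0.79 in the single pairs. ARRDC4 was at 11.3, 2.00, 9.09 and 5.87 CPM at 72 h and 21.4, 6.79, 13 and 13.2 CPM at 96 h. Its level roughly followed that of TXNIP in order, with CDK7 KO lowest and CDK1 KO highest at both times. The fitted change was 0.99 ± 0.12, 1.99-fold (edgeR BH-adjusted p = 4.79e-05). In the empty vector cells TXNIP was at 185 CPM at 72 h and 399.7 CPM at 96 h and ARRDC4 at 6.01 CPM at 72 h and 15.5 CPM at 96 h. Their changes there, 1.11 and 1.35, did not pass the test of a difference from the knockouts (0.12 ± 0.41 and 0.37 ± 0.27, edgeR BH-adjusted p = 0.867 and 0.351). TXNIP was not called without the CDK7/9 KO pair (1.07, edgeR BH-adjusted p = 0.243), with DESeq2 (1.06, adjusted p = 0.508) or with the empty vector as the fifth genotype (1.05, edgeR BH-adjusted p = 0.383), and its change was 0.55 without the CDK7 KO pair.

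The 250 bases before the start of both genes, from RefSeq's GRCh38.p14 promoter table, are shown because they hold the letters of the element that MondoA and MLX recognise. Capitals mark CACGNG, on either strand. The TXNIP window (chr1:145996580-145996829, minus strand) and the ARRDC4 window (chr15:97960453-97960702, plus strand) read, 5' to 3' on the gene's strand:
TXNIP: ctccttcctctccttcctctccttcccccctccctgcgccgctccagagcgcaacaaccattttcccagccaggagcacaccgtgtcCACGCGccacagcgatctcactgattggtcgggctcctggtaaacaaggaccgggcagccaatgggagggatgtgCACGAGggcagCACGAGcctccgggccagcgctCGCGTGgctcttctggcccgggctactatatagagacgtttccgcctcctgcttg
ARRDC4: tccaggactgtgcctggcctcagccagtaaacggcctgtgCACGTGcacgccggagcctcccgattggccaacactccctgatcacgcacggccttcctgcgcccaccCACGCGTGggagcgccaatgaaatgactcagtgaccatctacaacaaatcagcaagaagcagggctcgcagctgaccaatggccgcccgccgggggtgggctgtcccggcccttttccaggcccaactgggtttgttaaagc
TXNIP held 4 matches, of which those 88 and 77 bases before the start were 5 bases apart, the spacing of a carbohydrate response element. ARRDC4 held 3 matches, 2 of them overlapping. CACGNG is a common word: it was present in 30.5% of the 35116 promoters of the table (250 bases before to 50 after the start) and in 10 of the 26 promoters found for the 30 genes of the FOXO, MondoA and low growth signal list. Only TXNIP and ARRDC4 of those 30 genes passed the test, both higher, and the list's median log2 change was 0.01, against 0.003 for all genes tested.

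**Figure D2:**
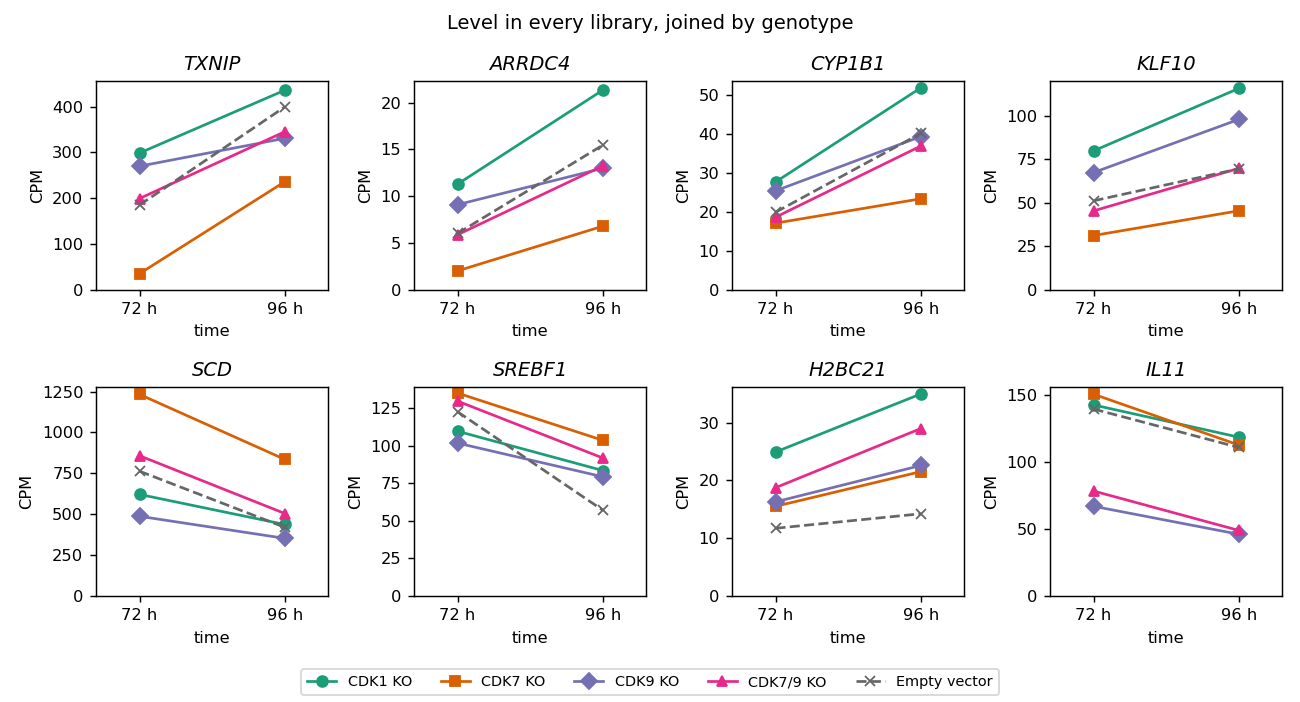
CPM (vertical axis, from 0) of 8 genes at 72 and 96 h, with a line for each genotype and a dashed line for the empty vector. TXNIP, ARRDC4, CYP1B1, KLF10 and H2BC21 lay higher and SCD, SREBF1 and IL11 lower at 96 h in all 4 knockout genotypes, while the genotypes differed in level, as with IL11 between 45.9 and 119 CPM at 96 h. All 8 come from genes chosen for a shared sign in the 4 pairs.

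CYP1B1 (chr2:38066973-38109902) and CYP1A1 (chr15:74719542-74725610) encode cytochrome P450 enzymes that oxidise aromatic compounds and oestrogens. Both are classical targets of the aryl hydrocarbon receptor (AHR), a sensor of such ligands. CYP1B1 was at 27.7, 17.1, 25.4 and 18.6 CPM at 72 h and 51.9, 23.3, 39.4 and 36.9 CPM at 96 h. It was higher in each genotype, most in CDK1 KO and CDK7/9 KO, and rose by a fitted 0.76 ± 0.074 or 1.69-fold (edgeR BH-adjusted p = 2.43e-06). CYP1A1 was at 29.1, 12.7, 21.2 and 19.5 CPM at 72 h and 46.9, 20.2, 31.8 and 26.9 CPM at 96 h. Its rise of 0.60 ± 0.064 was 1.52-fold (edgeR BH-adjusted p = 7.89e-06). In empty vector cells CYP1B1 went from 19.9 to 40.2 CPM and CYP1A1 from 17.1 to 19.2 CPM, and only CYP1A1 of the pair passed the test of a difference from the knockouts (-0.43 ± 0.15, edgeR BH-adjusted p = 0.0426).

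A group of AHR targets was assembled after these values were seen, so its counts are descriptive. Of its 8 tested genes, 4 were called, all higher, against 0.534% of all genes called higher: CYP1B1, CYP1A1, NQO1, a quinone reductase, at 0.27 ± 0.041, and TIPARP, an ADP-ribosyltransferase that restrains the receptor, at 0.18 ± 0.042 (edgeR BH-adjusted p = 0.000486 and 0.0304). AHR itself was at -0.12 ± 0.052 and its partner ARNT at 0.02 ± 0.050, neither called (edgeR BH-adjusted p = 0.316 and 0.909). NQO1 lost its call without the CDK7/9 KO pair and with mitochondrial scaling (libraries scaled to the 13 mRNAs of the mitochondrial genome), and TIPARP in both of these fits, without the CDK1 KO pair and with DESeq2. The CYP1A1 window (chr15:74725529-74725778, minus strand), printed because it belongs to the best known gene of this group, has capitals at GCGTG, the core of the element that AHR and ARNT bind:
CYP1A1: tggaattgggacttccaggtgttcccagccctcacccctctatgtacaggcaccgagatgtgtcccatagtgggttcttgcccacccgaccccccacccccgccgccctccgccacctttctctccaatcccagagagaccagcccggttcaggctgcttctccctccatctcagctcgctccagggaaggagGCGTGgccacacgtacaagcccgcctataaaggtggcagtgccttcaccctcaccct
It held 1 match, 57 bases before the start. GCGTG was present on either strand in 36.5% of all promoters in the table and in 5 of 7 found for the group.

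Genes of TGF-beta signalling and its early targets were another group assembled after the values were seen. Of its 22 tested genes, 7 were called higher, 1 was called lower and 14 were not called, against 0.534% of all genes called higher and 1.27% lower, and its median log2 change was 0.08. SMAD7 (chr18:48919853-48952052), an inhibitor that feeds back on the receptor, was at 10.9, 6.69, 8.76 and 7.73 CPM at 72 h and 14.6, 10.4, 13.6 and 11.9 CPM at 96 h. The single pairs differed by 0.42, 0.63, 0.63 and 0.62 on the log2 scale (fitted 0.57 ± 0.088, edgeR BH-adjusted p = 0.000548). KLF10 (chr8:102648779-102655902), a TGF-beta-inducible repressor, was at 79.9, 31.1, 67.4 and 45.3 CPM at 72 h and 116, 45.4, 98 and 69.8 CPM at 96 h. This rise had the smallest p among the 15, 0.56 ± 0.045 or 1.48-fold (edgeR BH-adjusted p = 1.09e-07), on levels that differed between the genotypes. KLF11, its close relative, was at 22, 14.9, 22.5 and 16.2 CPM at 72 h and 26.1, 24.6, 26.3 and 25.3 CPM at 96 h, and here every library at 96 h lay above every library at 72 h. It rose by 0.45 ± 0.080 (edgeR BH-adjusted p = 0.00228).

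HES1, a Notch and TGF-beta responsive repressor, rose by 0.40 ± 0.069 (edgeR BH-adjusted p = 0.00181), and THBS1, thrombospondin, by 0.16 ± 0.038 (edgeR BH-adjusted p = 0.0255). ID3, an inhibitor of basic helix-loop-helix factors, rose 2.07-fold (edgeR BH-adjusted p = 0.0016) from a mean of 2.51 to 5.13 CPM, the largest fold of any called protein-coding gene. THBS1 lost its call when any 1 of the 4 pairs was left out and with mitochondrial scaling, HES1 without the CDK7/9 KO pair and with mitochondrial scaling, and ID3 without the CDK7/9 KO pair. Of the 14 genes not called, 8 had a negative fitted change. Among the 14, ID1 was at 0.32 ± 0.086, PMEPA1 at 0.13 ± 0.040, SKIL at -0.10 ± 0.065, CCN2 at -0.03 ± 0.038 and TGFB2 at -0.10 ± 0.049 (edgeR BH-adjusted p = 0.0532, 0.1, 0.554, 0.82 and 0.378). TGFBR1, a receptor of the ligand, was at -0.10 ± 0.039 and TGFBI, an induced matrix protein, at -0.13 ± 0.039, lower at 96 h in all 4 pairs and not called (edgeR BH-adjusted p = 0.265 and 0.1). IL11, which TGF-beta can also induce, was the 1 called lower. In the empty vector pair SMAD7 went from 9.43 to 7.25 CPM, a difference from the knockouts of -0.95 ± 0.21 (edgeR BH-adjusted p = 0.00141), whereas KLF10 (0.44) did not pass that test (-0.12 ± 0.10, edgeR BH-adjusted p = 0.472).

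Further rises were seen in early-response and matrix genes. ATF3, a stress-induced AP-1 family factor, was at 26.8, 10.1, 12.6 and 9.18 CPM at 72 h and 37.7, 13.5, 13.7 and 13.2 CPM at 96 h, higher in each genotype by 0.49, 0.42, 0.12 and 0.52 (fitted 0.41 ± 0.079, edgeR BH-adjusted p = 0.00669). CEMIP, which takes part in hyaluronan breakdown, was at 23.5, 16.5, 8.54 and 12.2 CPM at 72 h and 29.7, 28, 10.8 and 13 CPM at 96 h (fitted 0.41 ± 0.088, edgeR BH-adjusted p = 0.0161). The difference was largest in CDK7 KO and smallest in CDK7/9 KO. The long noncoding RNA UCA1 rose by 0.41 ± 0.065, the zinc finger gene ZNF789 by 0.41 ± 0.11 and THBS1-IT1 by 0.62 ± 0.079 (edgeR BH-adjusted p = 0.000932, 0.0436 and 8.56e-05). THBS1-IT1 (chr15:39586561-39587293) lies inside THBS1 on the same strand, so its reads and those of THBS1 may not be told apart. In empty vector THBS1 went from 2374.7 CPM at 72 h to 1800.5 CPM at 96 h, whereas THBS1-IT1 was higher at 96 h. The change of THBS1 there differed from that of the knockouts by -0.56 ± 0.084 (edgeR BH-adjusted p = 2.19e-05).

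The histone genes that were called were all higher at 96 h. Of the 53 replication-dependent histone genes, 19 had enough counts to be tested, 7 were called higher and 0 lower, against 0.534% of all genes called higher. The median log2 change of the 19 was 0.28, against 0.003 for all genes. In the single pairs the median was 0.23, 0.31, 0.19 and 0.26, and in the empty vector pair 0.04. The main transcripts of these genes end in a stem-loop without a poly(A) tail, so a poly(A) library sees the polyadenylated minority. H2BC21 (chr1:149884459-149886652), a histone H2B gene, was at 24.9, 15.5, 16.3 and 18.7 CPM at 72 h and 35, 21.5, 22.6 and 29 CPM at 96 h, a rise of 0.52 ± 0.065 (edgeR BH-adjusted p = 6.11e-05). H4C8, a histone H4 gene, was at 28.9, 24.1, 27.8 and 31.2 CPM at 72 h and 37.6, 39, 33.7 and 40.8 CPM at 96 h and did not overlap between the times (0.44 ± 0.065, edgeR BH-adjusted p = 0.000447). H1-2, a linker histone gene, rose from a mean of 62.8 to 76.6 CPM (0.28 ± 0.048) and H2BC4 from 11.8 to 15.6 CPM (0.41 ± 0.083), with edgeR BH-adjusted p of 0.00202 and 0.0106. H2AC11, H2AC6 and H2BC5 were the other 3 called, at 0.44, 0.21 and 0.18 (edgeR BH-adjusted p = 0.0439, 0.0143 and 0.0443). Histone genes have near-identical copies, so reads may be split among them. The number called was 2 of 17 tested without the CDK7/9 KO pair, and 2 of 19 when libraries were scaled to mitochondrial mRNAs.

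The H2BC21 and H1-2 windows (chr1:149886683-149886932, minus strand, and chr6:26056471-26056720, minus strand) are shown with capitals at CCAAT, on either strand, a box typical of histone promoters and bound by NF-Y:
H2BC21: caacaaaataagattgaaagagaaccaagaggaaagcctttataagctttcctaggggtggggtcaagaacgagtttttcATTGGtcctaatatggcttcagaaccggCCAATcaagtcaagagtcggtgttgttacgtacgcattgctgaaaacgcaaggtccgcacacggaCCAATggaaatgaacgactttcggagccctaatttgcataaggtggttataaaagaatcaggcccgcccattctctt
H1-2: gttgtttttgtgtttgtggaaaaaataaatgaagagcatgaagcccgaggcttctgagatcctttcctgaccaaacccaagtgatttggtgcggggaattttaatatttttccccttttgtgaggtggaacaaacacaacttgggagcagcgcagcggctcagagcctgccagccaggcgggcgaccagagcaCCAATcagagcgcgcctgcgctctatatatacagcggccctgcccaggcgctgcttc
H2BC21 held 3 matches, the nearest 77 bases before the start, and H1-2 held 1, 57 bases before it. CCAAT was present in 18 of the 19 tested histone promoters and in 34.6% of all promoters in the table, and 6 of the 7 called histone genes had it.

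Other genes of DNA synthesis and division had few calls, where 0.534% of all genes were called higher and 1.27% lower. Among 46 genes of DNA replication and E2F, RRM2, a ribonucleotide reductase subunit, was called higher (0.18 ± 0.046) and GINS4, a subunit of the replicative helicase, lower (-0.18 ± 0.046), with edgeR BH-adjusted p of 0.0389 and 0.0457, and the list's median was 0.03. Neither gene was called without the CDK1 KO pair, without the CDK7/9 KO pair or with mitochondrial scaling, and RRM2 was also lost without the CDK7 KO pair and GINS4 with DESeq2. Of 44 genes of G2 and mitosis, 3 were called lower and 0 higher. A negative fitted change was found in 42, against 8146 of all 16658 genes tested, and the list's median was -0.08. CCNB1, cyclin B1, fell by 0.17 ± 0.038, TOP2A, topoisomerase II alpha, by 0.17 ± 0.039 and ASPM, a spindle pole protein, by 0.16 ± 0.041 (edgeR BH-adjusted p = 0.0229, 0.0279 and 0.0389). In the single pairs the median was -0.12, 0.01, -0.15 and -0.10. The empty vector pair had a median of 0.28. Of the 44 genes, 29 were called for a difference between the empty vector and the knockouts in their change, against 4474 of all 16658 tested. The 3 calls were absent without the CDK1 KO pair, without the CDK7/9 KO pair and with mitochondrial scaling, and 7 genes were called without the CDK7 KO pair.

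The called genes of lipid synthesis were all lower at 96 h. Of 15 tested genes of fatty acid synthesis and desaturation, 6 were called lower and 0 higher (median -0.16), and of 25 genes of cholesterol synthesis and uptake 8 were called lower and 0 higher (median -0.10). Among all genes 1.27% were called lower and the median was 0.003. The transcription factors SREBP1 and SREBP2, which are under the control of sterols, drive many of these genes. SCD (chr10:100347124-100364834), the stearoyl-CoA desaturase that makes oleate, was at 621, 1233, 487 and 858 CPM at 72 h and 436, 835, 351 and 504 CPM at 96 h. Each genotype was lower at 96 h, and the order of the genotypes, from CDK7 KO at the top to CDK9 KO at the bottom, was the same at both times. The fitted fall of 0.58 ± 0.044 was 1.49-fold (edgeR BH-adjusted p = 1.09e-07). SREBF1 (chr17:17810399-17837002), the gene of SREBP1, was at 109.7, 135, 102 and 129.8 CPM at 72 h and 83.5, 104, 79.3 and 91.8 CPM at 96 h (-0.41 ± 0.042, edgeR BH-adjusted p = 4.52e-06). The desaturases FADS2 (-0.34 ± 0.041) and FADS1 (-0.19 ± 0.040), the phosphatidate phosphatase LPIN1 (-0.34 ± 0.052) and fatty acid synthase, FASN (-0.29 ± 0.049), completed the 6, with edgeR BH-adjusted p of 3.58e-05, 0.0137, 0.000528 and 0.00154. FASN differed by -0.05 in the CDK9 KO pair, against -0.29, -0.48 and -0.34 in the others.

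The called genes of the cholesterol list described here are regulators, a transfer protein and enzymes. INSIG1, which holds SREBPs in the endoplasmic reticulum, fell from a mean of 78.1 to 60.7 CPM (-0.35 ± 0.056) and STARD4, a sterol transfer protein, from 51.4 to 40.9 CPM (-0.33 ± 0.057), with edgeR BH-adjusted p of 0.000932 and 0.00213. The enzymes FDFT1, LSS and ACAT2 and the factor gene SREBF2 fell by less, at -0.17, -0.17, -0.17 and -0.19 (edgeR BH-adjusted p = 0.041, 0.0484, 0.048 and 0.0166), while HMGCS1, an early enzyme of the pathway, at -0.10 ± 0.051, was not called (edgeR BH-adjusted p = 0.402). ABCA1, an exporter of cellular cholesterol that the sterol-activated receptor LXR induces, also fell (-0.41 ± 0.068, edgeR BH-adjusted p = 0.00138), from 28.6 to 21.5 CPM as means. By pair the cholesterol list's median was -0.12, -0.20, -0.03 and -0.19, so the CDK9 KO pair was nearest to 0. Without the CDK7/9 KO pair 1 of the 25 cholesterol genes and 3 of the 15 fatty acid genes were called.

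Of 32 promoters found for the 40 lipid genes tested, 2 held TCACCCCAC, a sterol response element, on either strand, against 0.43% of all promoters in the table. These were SREBF2, which was called, and MID1IP1, an activator of acetyl-CoA carboxylase, which was not (-0.07 ± 0.050, edgeR BH-adjusted p = 0.626). In the empty vector pair the median log2 change was -0.43 in the fatty acid list but 0.06 in the cholesterol list. The change differed from that of the knockouts by test for 11 of the 15 fatty acid and 12 of the 25 cholesterol genes. Among all 16658 genes tested, 4474 did. The empty vector pair had lower values at 96 h for SCD and SREBF1: SCD went from 763 to 419 CPM and SREBF1 from 123 to 57 CPM. The extra fall relative to the knockouts was -0.29 ± 0.096 and -0.70 ± 0.098 (edgeR BH-adjusted p = 0.03 and 1.13e-05). STARD4 went the other way in empty vector (0.26, difference 0.59 ± 0.12, edgeR BH-adjusted p = 0.000915).

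**Figure D3:**
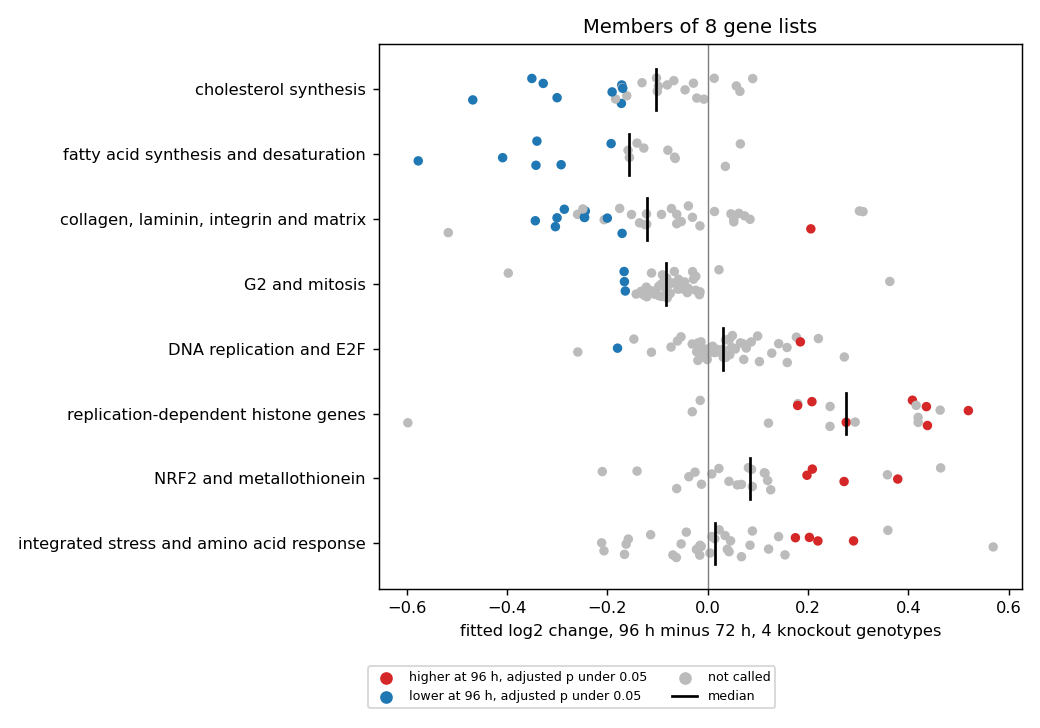
Fitted log2 change from 72 to 96 h over the 4 knockout genotypes (horizontal axis) of each tested member of 8 gene lists (vertical axis, points spread at random within a list), with a black line at the list's median. Called members lie on the left in the cholesterol (8), fatty acid (6) and G2 and mitosis (3) lists and on the right in the histone (7), NRF2 and metallothionein (4) and integrated stress (4) lists.

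Most of the called matrix and adhesion genes were lower at 96 h. Of 37 tested genes of collagens, laminins, integrins and matrix, 9 were called lower and 1 higher, with a median of -0.12, against 1.27% of all genes called lower and 0.534% higher. The falls were in LAMA5 and LAMB1, laminin chains of basement membrane, COL13A1, COL17A1 and COL8A1, collagens, ITGA1, ITGB4 and ITGA6, integrin subunits, and TNC, tenascin C. LAMA5 fell from a mean of 426 to 346 CPM with no overlap between the times (-0.30 ± 0.041), COL13A1 from 413 to 338 CPM (-0.29 ± 0.038) and ITGA1 from 68.6 to 54 CPM (-0.34 ± 0.053), with edgeR BH-adjusted p of 0.000159, 0.00011 and 0.000548. ITGB4, the integrin of hemidesmosomes, fell by 0.25 ± 0.040 (edgeR BH-adjusted p = 0.000997). FN1, fibronectin, rose by 0.21 ± 0.039 (edgeR BH-adjusted p = 0.00511), and in empty vector it went from 589 to 322 CPM, a difference of -1.07 ± 0.088 (edgeR BH-adjusted p = 5.93e-09). ITGA10, an integrin subunit outside that list, had a larger fall, -0.46 ± 0.11 (edgeR BH-adjusted p = 0.0281), with -0.94 in CDK7 KO and -0.13 in CDK9 KO. Without the CDK7/9 KO pair 2 of the 37 were called, both lower, and with mitochondrial scaling 3 were, all lower.

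HAS2 (chr8:121612116-121641390), a hyaluronan synthase, was at 48.5, 50, 27.6 and 36.9 CPM at 72 h and 34.6, 32.1, 22.7 and 24.9 CPM at 96 h (-0.50 ± 0.062, edgeR BH-adjusted p = 4.93e-05). All 4 pairs were lower at 96 h, while the empty vector pair was at 0.14, a difference of 0.65 ± 0.13 (edgeR BH-adjusted p = 0.000746). Among 26 proteases, inhibitors and remodelling genes, 4 were called higher and 2 lower, against 0.534% and 1.27% of all genes. The numbers were 1 and 1 without the CDK7/9 KO pair, 2 and 2 with DESeq2 and 2 and 1 with mitochondrial scaling. Among those higher were ADAMTS1, a matrix protease (0.26 ± 0.040), MMP1, a collagenase (0.37 ± 0.068), and SERPINB2, a serine protease inhibitor (0.74 ± 0.17), with edgeR BH-adjusted p of 0.000548, 0.00352 and 0.0255. PLAT, tissue plasminogen activator (-0.29 ± 0.039), and TIMP3, a metalloproteinase inhibitor (-0.27 ± 0.041), were lower (edgeR BH-adjusted p = 0.000157 and 0.000528). MMP1 was at 554, 255, 463 and 259.6 CPM at 72 h and 790.5, 411, 452 and 323 CPM at 96 h, with a difference of -0.03 in the CDK9 KO pair.

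Several secreted and signalling genes were among the largest falls. IL11 (chr19:55364389-55370463), a cytokine of the interleukin 6 family, was at 143, 151, 66.9 and 78.3 CPM at 72 h and 119, 113, 45.9 and 48.8 CPM at 96 h (-0.46 ± 0.053, edgeR BH-adjusted p = 2.01e-05). Its level in the 4 libraries with CDK9 targeted was below that in the other 4 at both times, and each pair was lower at 96 h. S100A2, a calcium-binding protein, was at 31.6, 48.3, 23.9 and 31.6 CPM at 72 h and 24.6, 29.8, 15.6 and 19.1 CPM at 96 h (-0.60 ± 0.067, edgeR BH-adjusted p = 1.95e-05). ARG2, mitochondrial arginase, was at 13, 18.6, 9.15 and 11.9 CPM at 72 h and 8.82, 13, 5.88 and 6.87 CPM at 96 h (-0.62 ± 0.088, 1.53-fold lower, edgeR BH-adjusted p = 0.000281), and SEMA3B, a secreted semaphorin, at 32.6, 47, 20.6 and 24.1 CPM at 72 h and 26.1, 32.1, 11.1 and 16.7 CPM at 96 h (-0.54 ± 0.073, edgeR BH-adjusted p = 0.000153). For these 3 genes the libraries at 72 and 96 h overlapped, although each of the 4 pairs was lower at 96 h.

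SOX4, a developmental transcription factor, was at 68.4, 61, 64.7 and 80.5 CPM at 72 h and 56.2, 45.1, 43.8 and 50.9 CPM at 96 h, with no overlap between the times (-0.48 ± 0.055, edgeR BH-adjusted p = 2.01e-05). SLCO4A1-AS1 was at 32.3 to 35.7 CPM in all 4 genotypes at 72 h and at 24.4 to 27.4 CPM at 96 h, with no overlap (-0.44 ± 0.059, edgeR BH-adjusted p = 0.000135). It is antisense to SLCO4A1, and whether counting used the strand is not given in the sources used here, so reads of the pair may be mixed. MYRF, a membrane-bound transcription factor (-0.41 ± 0.070), TMEM135, a gene of peroxisomes and mitochondria (-0.44 ± 0.075), and MIR23AHG, a microRNA host gene (-0.53 ± 0.10), were also among the 15 (edgeR BH-adjusted p = 0.00186, 0.00181 and 0.00548). MIR23AHG went from 35.9 to 17.2 CPM in CDK7/9 KO and was at 27.8 and 26.7 CPM in CDK1 KO. Outside the 15, HMGB3, a chromatin protein, fell with no overlap between the times (single pairs -0.36, -0.35, -0.38 and -0.45, fitted -0.38 ± 0.039, edgeR BH-adjusted p = 3.8e-06), and was named after its values were seen.

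Smaller sets of calls in stress and signalling lists were mostly rises, where 0.534% of all genes were called higher. Of 35 genes of the integrated stress and amino acid response, 4 were called higher and 0 lower: SLC3A2 and SLC7A5, which form an amino acid exchanger, at 0.29 ± 0.038 and 0.20 ± 0.037, the factor ATF5 at 0.22 ± 0.052, and PPP1R15A, a phosphatase subunit that restarts translation, at 0.17 ± 0.043 (edgeR BH-adjusted p = 0.00011, 0.00372, 0.0313 and 0.0359). The list's median was 0.01, and 2 were called without the CDK1 KO pair, 1 without the CDK7/9 KO pair and 0 with mitochondrial scaling. Of 24 NRF2 and metallothionein genes 4 were called higher and 0 lower, with a median of 0.08: NQO1, the thioredoxin reductase TXNRD1 (0.20 ± 0.039), the ferritin chain FTL (0.21 ± 0.045) and OSGIN1 (0.38 ± 0.093), the last 3 with edgeR BH-adjusted p of 0.00845, 0.0152 and 0.0374. NQO1 is counted here and among the AHR targets. Of the 24, 2 were called with DESeq2 or without the CDK1 KO pair (of 23 tested), 0 with mitochondrial scaling and 0 of 23 tested without the CDK7/9 KO pair. Of 30 p53 targets, CDKN1A, the inhibitor p21 (0.29 ± 0.044), and GADD45A (0.26 ± 0.060) were higher (edgeR BH-adjusted p = 0.000606 and 0.0255), though the line is known to carry mutant p53. Without the CDK7/9 KO pair and with mitochondrial scaling 0 p53 targets were called. Of 34 immediate-early and AP-1 genes, KLF10 and ATF3 were higher, and DUSP5 (-0.36 ± 0.050) and DUSP6 (-0.19 ± 0.037), phosphatases that restrain ERK, were lower (edgeR BH-adjusted p = 0.00019 and 0.00507). Without the CDK7/9 KO pair, and also with mitochondrial scaling, 1 was called higher and 1 lower. ATF3 and DUSP6 lost their calls in both of these fits, and ATF3 also without the CDK1 KO pair.

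Other lists had few calls, where 0.534% of all genes were called higher and 1.27% lower. Calls in the lysosome and autophagy, unfolded protein response, glycolysis and cytosolic ribosomal protein lists did not hold in all fits. All of them were absent without the CDK1 KO pair, without the CDK7/9 KO pair and with mitochondrial scaling. The YAP and TEAD targets had 3 of 31 higher (THBS1 and GADD45A among them) with a median of -0.04, the lysosome and autophagy genes 2 of 41 higher (MAP1LC3B and SQSTM1), the unfolded protein response 1 of 22 higher (ERN1, its sensor IRE1) and the hypoxia genes 1 of 30 higher (ANGPTL4, 0.67 ± 0.11, edgeR BH-adjusted p = 0.0016). The glycolysis genes had 1 of 21 lower, HK2, a hexokinase (-0.19 ± 0.040, edgeR BH-adjusted p = 0.0137), the interferon-stimulated genes 1 of 47 lower (GBP2), the NF-kB and cytokine genes 1 of 31 lower (IL11), and the mesenchymal and epithelial genes 2 of 31 lower (S100A4 and KRT19). GBP2 lost its call without the CDK1 KO pair, without the CDK7/9 KO pair and with DESeq2. KRT19 lost its call without the CDK1 KO, CDK9 KO or CDK7/9 KO pair and with mitochondrial scaling, and S100A4 with mitochondrial scaling. Of 86 cytosolic ribosomal protein genes 1 was higher (RPL36A) and 1 lower (RPL3), and of 465 zinc finger genes 1 was higher. No gene was called among 9 anti-apoptotic, 23 pro-apoptotic, 19 antigen presentation, 23 heat shock chaperone, 70 nuclear oxidative phosphorylation, 40 ribosome biogenesis, 20 snoRNA host and 16 circadian clock genes in the edgeR test, where 3, 2, 3, 9, 7, 7, 5 and 4 of them had an unadjusted p under 0.05. DESeq2 called 1 heat shock chaperone gene and none in the other lists of that sentence. Among all 16658 genes tested by edgeR, 301 (1.81%) were called and 2250 had an unadjusted p under 0.05. MCL1, the short-lived survival protein gene on which transcriptional CDK inhibition often acts, was at -0.11 ± 0.040 (edgeR BH-adjusted p = 0.219).

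The transcription machinery around the targeted kinases had 1 call. At the 1.81% called among all genes, few calls would fall in lists of this size. Of 34 genes of P-TEFb, elongation and the Mediator kinase, 0 were called by edgeR or by DESeq2. At an unadjusted edgeR p under 0.05 there was 1, against 2250 of all 16658 genes tested. Of 10 genes of the CDK7 kinase and TFIIH, ERCC2, a TFIIH helicase, was called lower (-0.17 ± 0.044, edgeR BH-adjusted p = 0.0403), but not with DESeq2, with mitochondrial scaling or without the CDK1 KO, CDK7 KO or CDK7/9 KO pair. POLR2A, the largest subunit of RNA polymerase II, was at 0.15 ± 0.047 (edgeR BH-adjusted p = 0.127).

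Transcripts of the mitochondrial genome, made by a polymerase of the organelle, accounted for 3.94%, 3.90%, 5.04% and 5.38% of the counts at 72 h and 4.01%, 3.72%, 5.98% and 5.41% at 96 h. The mean difference was 0.216 percentage points (SD 0.497, n = 4 pairs; exact 2-sided sign-flip permutation p = 0.625, where 4 pairs cannot go below 1 in 8), and CDK9 KO alone moved by more than 0.2. Of the 13 mRNAs, MT-CYB (0.26 ± 0.056) and MT-CO3 (0.19 ± 0.048) were called higher (edgeR BH-adjusted p = 0.0166 and 0.0407), each in 3 of 4 pairs. With DESeq2 or without the CDK7/9 KO pair 0 of the 13 were called, without the CDK1 KO pair 1 was called higher, and without the CDK9 KO pair 0 were called higher and 2 lower. With libraries scaled to these mRNAs 98 genes were called at 96 h, 20 higher and 78 lower, 85 of them among the 301.

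Whether the change over time depended on which kinase was missing was asked by 2 interaction tests. Between the genotypes with CDK9 targeted (CDK9 KO and CDK7/9 KO) and those with CDK9 intact (CDK1 KO and CDK7 KO), 4 of 16658 genes differed in their change (0.024%; 854 at an unadjusted p under 0.05). Between those with CDK7 targeted (CDK7 KO and CDK7/9 KO) and intact (CDK1 KO and CDK9 KO), 6 did (0.036%; 804 at an unadjusted p under 0.05). DESeq2 called 0 in both (75 and 76 at an unadjusted p under 0.05). With 2 pairs a side, the test has 2 residual degrees of freedom, so differences of modest size could be missed.

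The calls were mostly processed pseudogenes that were present in some libraries and nearly absent in others. BTF3P10 (chr6:149977922-149978416), a copy of the translation factor gene BTF3, went from 63.6 to 2.94 CPM in CDK9 KO, was at 2.56 and 2.27 CPM in CDK7/9 KO, and was at 51.6 to 64.5 CPM in the other 4. AP2B1P1 (chrX:93222220-93225015), a copy of an adaptor protein gene, went from 3.42 to 17 CPM in CDK9 KO and from 22.3 to 3.13 CPM in CDK7 KO. HSPD1P1 (chr5:21882585-21884310), a copy of a mitochondrial chaperone gene, was at 39.6, 37.4, 48.7 and 23.8 CPM at 72 h and 36.5, 40, 21.9 and 45.6 CPM at 96 h. Reads of such copies can be shared with the parent gene, so these values are uncertain. The same holds for the largest fold among the 301, PKMP2, a copy of a pyruvate kinase gene, at 7.88, 0.250, 0.165 and 7.38 CPM at 72 h and 0.175, 0.0475, 0.118 and 0.0989 CPM at 96 h, and for 2 of the other 3 genes past 2-fold, PKMP5 and PTBP1P. ID3 was the fourth.

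Of the 30 named genes, TXNIP had the smallest p for CDK7: the change with CDK7 targeted differed from that with it intact by 1.23 ± 0.26, at an unadjusted p of 3.85e-05 and an edgeR BH-adjusted p of 0.0916, and it differed by -0.96 ± 0.28 with CDK9 targeted (edgeR BH-adjusted p = 0.629). The CDK7 KO library at 72 h, with TXNIP at 34.8 CPM, lay below the 199 to 299 CPM of the other 3. For CDK7, the differences of ARRDC4 and KLF11 did not pass the test (0.64 ± 0.22 and 0.44 ± 0.14, edgeR BH-adjusted p = 0.954 and 0.778). For KLF10, SCD and SREBF1 the CDK7 differences were 0.05 ± 0.095, -0.18 ± 0.079 and -0.07 ± 0.086 (edgeR BH-adjusted p = 0.992, 0.97 and 0.989).

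The 4 pairs were alike in how far they moved. Over the 9802 genes with at least 10 CPM on average over all 10 libraries, the SD of the log2 differences was 0.132, 0.156, 0.156 and 0.141, and 20, 25, 22 and 27 genes exceeded 1.5-fold in a single pair. Across these genes, which are not independent replicates, the differences of 2 pairs correlated with a Pearson r between 0.00998 (CDK7 KO and CDK9 KO) and 0.444 (CDK1 KO and CDK7/9 KO). The libraries of a pair share a genotype and no library is shared between pairs.

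The 2 empty vector libraries differed far more from each other than the 2 libraries of any knockout. The SD of their log2 differences was 0.396, and 1231 of the 9802 genes (12.6%) exceeded 1.5-fold, 505 higher and 726 lower. The share of mitochondrial mRNAs was 3.78% at 72 h and 2.60% at 96 h, against 3.72% to 5.98% in the knockout libraries. CDK1 mRNA was at 180 CPM at 72 h and 288 CPM at 96 h, against 141 to 183 CPM in the knockouts other than CDK1 KO. In both measures only the 96 h library lay outside the range given. A test of the difference between the empty vector pair and the knockout pairs called 4496 of 17549 genes (25.6%), 2336 with the higher log2 change in empty vector and 2160 with the lower. Empty vector has 1 library at each time, so this test assumes that its pair varies like the knockout pairs. A change over time cannot be told apart from a deviation of 1 library. What set this pair apart from the knockout pairs was not tested. Scaling to mitochondrial mRNAs moved the median difference of all genes from 0.01 to 0.59 and called 7494 with the higher and 166 with the lower change, so the directions that follow are relative to the bulk of genes.

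Among protein-coding genes with the smallest p, ANP32E, a histone chaperone, was at 166 CPM at 72 h and 302 CPM at 96 h in empty vector, a change 0.97 ± 0.091 above that of the knockouts, where it was at -0.11. ARL6IP1, a shaping protein of the endoplasmic reticulum, was 0.98 ± 0.094 above. MYO1C, a myosin, was at 412 CPM at 72 h and 169 CPM at 96 h in empty vector (-1.24 ± 0.085 against the knockouts, where it was at -0.05), ATP11A, a phospholipid flippase, at 77.3 CPM at 72 h and 22.4 CPM at 96 h (-1.78 ± 0.13) and HELZ2, a nuclear receptor coactivator, at 69.8 CPM at 72 h and 22.5 CPM at 96 h (-1.64 ± 0.11). The edgeR BH-adjusted p of these 5 lay between 5.07e-10 and 7.34e-08. MT-ND4L and MT-ATP8, of the mitochondrial genome, had the smallest p of all, at -2.05 ± 0.11 and -2.53 ± 0.15 (edgeR BH-adjusted p = 6.1e-12 and 3.57e-11). The 3 genes with the smallest p among the higher changes were the ribosomal protein pseudogenes RPL9P9, RPS3AP6 and RPL21P16, whose reads can be shared with their parent genes.

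**Figure D4:**
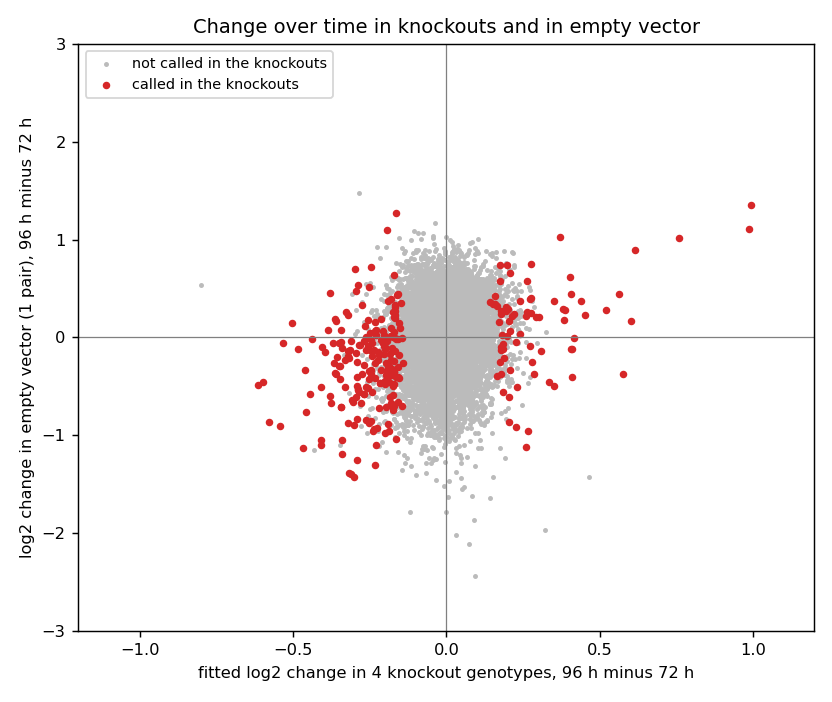
Fitted log2 change over the 4 knockout genotypes (horizontal axis) against the log2 change of the single empty vector pair (vertical axis) from 72 to 96 h, with 1 point for each of 9806 genes with at least 10 CPM on average over the 8 knockout libraries. The cloud is taller than wide. The 273 called genes shown are in red, and of all 301 called genes 217 had the same sign on both axes.

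The genes called in the knockouts nonetheless tended to have the same sign in empty vector. Of the 301, 217 did (72.1%), 56 of the 89 rises and 161 of the 212 falls, against 52.4% of all tested genes. For 119 of the 301 (39.5%), the change in empty vector differed from that in the knockouts by the test of the difference. Among all 16658 genes tested in the knockouts, 4474 did. The knockout change that selected the 301 is also part of this difference. In addition, 273 of the 301 averaged at least 10 CPM, against 9805 of all tested genes. The higher share can therefore not be read as a trait of these genes. TXNIP, ARRDC4, CYP1B1, THBS1-IT1, KLF10, ARG2, S100A2 and SLCO4A1-AS1 were at 1.11, 1.35, 1.01, 0.90, 0.44, -0.49, -0.46 and -0.58 in empty vector, the same sign as in the knockouts, and none of them passed the test of a difference. SMAD7, CEMIP, HAS2, CDKN1A and FN1 had the opposite sign in empty vector (-0.38, -0.41, 0.14, -0.37 and -0.87) and did pass it (edgeR BH-adjusted p = 0.00141, 0.0052, 0.000746, 4.29e-05 and 5.93e-09).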

How the data were processed

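The authors deposited raw whole-number counts for each gene symbol and library. Libraries were made with a 3' mRNA kit for forward reads, per the labels' protocols, and FastQC, then STAR 2.7.10a on GRCh38, were used, per the submitters' processing notes. How reads were counted (tool, annotation, strand, molecular identifiers) is not given in the sources used here, and reads without identifiers are not independent molecules.

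Counts of the 8 knockout libraries (16985219 to 22417327 each) were fitted in edgeR 4.0.16 (R 4.3.3) with a term for each genotype and 1 for 96 h (3 residual degrees of freedom). Genes were kept by filterByExpr (minimum count 10, minimum total 15), scaled by TMM and tested by the quasi-likelihood F test with Benjamini-Hochberg (BH) adjustment over all genes tested. The variance of each gene was moderated towards that of all genes. An SE is the log2 change divided by the root of F, and so is not the SE of the single-pair differences. Printed CPM and single-pair log2 differences (prior count 2) use the TMM scale of the 10 libraries with a knockout or empty vector. Interaction terms tested CDK9-targeted against intact and CDK7-targeted against intact pairs (2 residual degrees of freedom each) and, over 10 libraries, empty vector against knockouts (3).

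Genes named are CDK1, CDK7 and CDK9, the 15 largest rises and 15 largest falls among called genes averaging 10 CPM or more whose 4 pairs share a sign, up to 5 per direction of an interaction, and up to 4 per list by p (also 10 CPM or more). Other list members are named with their values, and some genes that the rule names are not reported here. The members and lists were chosen with earlier results of these data known, and the AHR and TGF-beta groups after these values were seen. HMGB3 and the genes under 10 CPM (ID3, ANGPTL4, SERPINB2, PKMP2, PKMP5, PTBP1P) fall outside the rule.

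Alternatives were DESeq2 size factors, no filter, DESeq2 1.42.0, scaling to 13 mitochondrial mRNAs, no genotype term, empty vector as the fifth genotype, and leaving out each pair. Positions and biotypes are from GENCODE release 29 (15191 of 16658 gene symbols matched), and promoters from RefSeq GRCh38.p14.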

Additional observations from a re-analysis of the deposited data

Results flagged for a closer look

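In 3 of 33 genes examined, the single-pair log2 differences had 1 pair standing away from the other 3 by Dixon's criterion, where chance alone gives about 1 in 20. SMAD7 differed by 0.423 in the CDK1 KO pair, against 0.63, 0.63 and 0.62 in the others. KLF10 differed by 0.622 in the CDK7/9 KO pair, against 0.54, 0.54 and 0.54. H2BC21 differed by 0.627 in the CDK7/9 KO pair, against 0.49, 0.47 and 0.47. In each gene the 4 pairs shared a sign, which was a condition for naming it among the largest changes.

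The change from 72 to 96 h differed between the empty vector pair and the knockout pairs for 4496 genes by edgeR's interaction test, between CDK9-targeted and CDK9-intact pairs for 4 genes, and between CDK7-targeted and CDK7-intact pairs for 6 genes. Of these last 2 sets, BTF3P10 and AP2B1P1 for CDK9 and HSPD1P1 for CDK7 had a mean of at least 10 CPM, and all 3 are processed pseudogenes.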

How the results depend on the processing

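The 301 calls over the 4 genotypes became 485 with no filter on low counts, 169 with DESeq2, 98 with mitochondrial scaling, 0 with no replicate block (the genotype term left out of the model, which otherwise pairs the libraries) and 9 with empty vector as the fifth genotype. Leaving out a pair gave 37 to 430, and DESeq2 size factors gave 311. The 4496 differences of the empty vector became 2770 with DESeq2 and 7660 with mitochondrial scaling (7494 larger, 166 smaller), and 3488 to 4859 without 1 pair. The 4 CDK9 differences became 25 with no filter, 0 with DESeq2 and 5 to 44 without 1 pair, and the 6 CDK7 differences 26, 0 and 9 to 60. The mean difference in the mitochondrial share ran from -0.0263 to 0.348 percentage points without 1 pair, negative only without CDK9 KO. Of the 30 genes named as largest changes, none reversed. They were chosen for a shared sign in all 4 pairs, which left little room for a reversal. Among the 30, 24 kept their call with DESeq2, 26 with mitochondrial scaling, 8 with empty vector as the fifth genotype, 0 with no genotype term, 26 without the CDK1 KO pair, 28 without CDK7 KO, 29 without CDK9 KO and 20 without CDK7/9 KO. MT-CYB reversed to -0.0143 with empty vector as the fifth genotype. The cause was not tested for these, except that fits without 1 pair hold fewer libraries. Depth limits low genes most: each genotype and time has 1 library, and counting error stands beside unknown variation between cultures.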

Other observations

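Protein-coding genes averaging 10 CPM or more in the knockout libraries were ranked by the length of their longest annotated transcript. In CDK1 KO the median log2 difference from 72 to 96 h went from 0.02 in the 2336 shortest of these genes to -0.04 in the 2336 longest. It went from 0.04 to -0.02 in CDK7 KO, from 0.03 to -0.05 in CDK7/9 KO and from 0.10 to -0.06 in empty vector. It went from -0.07 to 0.04 in CDK9 KO. The lengths ran from 207 to 2558 bases among the shortest and from 5701 to 34526 bases among the longest.

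Of the 301 genes called in the knockouts, 274 were protein-coding, 12 pseudogenes and 12 other noncoding genes, and 3 had no match in the annotation. Among the 4 past 2-fold, 3 were pseudogenes. Libraries at 72 and 96 h did not overlap in CPM for 50 of the 301, and for 1.74% of all tested genes.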
